A study of Mus musculus with 5 samples.

Results

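EZHIP-only H3K27me3 peaks were examined in large chromatin regions where cells with either inhibitor retained part of the mark. An EZHIP peak on chromosomes 1 to 19 was taken when it shared no base with a K27M peak but lay over a K27R region that overlapped at least 1 K27M peak. This rule found 1046 of 4890 autosomal EZHIP peaks, a share of 21.4% (exact 95% interval 20.2 to 22.6). EZHIP peaks without any overlap of a K27M peak numbered 1757, or 35.9% of the autosomal list, so the rule took 59.5% of these (57.2 to 61.8). The EZHIP list over all chromosomes held 4992 peaks. The members were chosen by measured values, namely the overlap of peaks between lists, so that their number, their gap to K27M peaks and their place in K27M-containing regions are descriptions. They are called EZHIP-only peaks of K27M-kept regions, and a K27R region that holds at least 1 of them is called a host.

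H3K27me3 was profiled by ChIP-Seq after MNase digestion in mouse embryonic fibroblasts (MEFs) isolated from an embryo whose Eed gene, which encodes a core PRC2 subunit, has loxP sites around several exons. Stable lines were made with lentiviruses carrying human EZHIP, H3.3 K27M or H3.3 K27R under an EF1a promoter, followed by puromycin selection, with 1 library each. The K27R line, whose mutant histone carries arginine in place of the lysine, served as the reference here. The parental Control and the EEDnull line were not analysed here. The lists held positions only, which left the depth unknown, and with 1 library per group there was no replicate spread to compare with. As a check of the cell type, none of 8 fibroblast genes (0 of Col1a1, Col1a2, Col3a1, Fn1, Vim, Thy1, Pdgfrb and Lum) had its start site in a K27R region. Over all autosomal protein-coding genes, 6041 of 21418 start sites lay in one, so this zero alone says little. Of a list of 8 neural and blood genes, 7 were found in the annotation, and 7 had the start site in a K27R region.

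PRC2 trimethylates lysine 27 of histone H3. It is recruited at CpG islands, stretches of DNA dense in CG dinucleotides that often hold the start sites of developmental genes, and its product binds the Eed subunit and stimulates the enzyme, which lets the mark spread into flanking chromatin. H3 K27M is the oncohistone of diffuse midline glioma and EZHIP is the protein expressed in PFA ependymoma. Both bind PRC2 and inhibit it.

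A contrast between EZHIP-only peaks and K27M peaks of the same region is visible in the bases of the pairs below. Each pair gives the 300 bases with the most CG dinucleotides in an EZHIP-only peak and in the nearest K27M peak of the same K27R region, outside annotated untranslated parts of exons. The K27M peaks were wider, with a median of 6.8 kb against 2.6 kb over all pairs, and a wider peak can reach a higher maximum. Not every pair shows the contrast. Over whole peaks, CG density was lower in the EZHIP-only peak in 744 of 1046 pairs and higher in 301. The rule keeps EZHIP-only peaks out of K27M peaks and the islands there, so this count is not independent of it. In the widest EZHIP-only peak, in Rbfox3, the windows held 11 CG against 10 in the K27M peak. Sequences are the plus strand of the NCBIM37 (mm9) genome, 5′ to 3′, with CG dinucleotides in capitals. The first pair is from Ikzf1, a transcription factor gene of the lymphoid lineage. The EZHIP-only window holds 8 CG and partly covers a coding exon, and the K27M window lies in a CpG island near the gene's start and holds 57 CG.
Ikzf1 EZHIP-only peak, chr11:11648236-11648535: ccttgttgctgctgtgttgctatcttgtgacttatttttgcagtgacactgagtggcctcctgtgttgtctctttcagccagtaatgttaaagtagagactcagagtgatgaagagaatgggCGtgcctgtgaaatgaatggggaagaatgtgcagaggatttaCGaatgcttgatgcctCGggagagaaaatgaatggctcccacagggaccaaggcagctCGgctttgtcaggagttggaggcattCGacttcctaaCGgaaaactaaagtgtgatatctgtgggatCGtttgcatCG
Ikzf1 K27M peak, chr11:11585497-11585796: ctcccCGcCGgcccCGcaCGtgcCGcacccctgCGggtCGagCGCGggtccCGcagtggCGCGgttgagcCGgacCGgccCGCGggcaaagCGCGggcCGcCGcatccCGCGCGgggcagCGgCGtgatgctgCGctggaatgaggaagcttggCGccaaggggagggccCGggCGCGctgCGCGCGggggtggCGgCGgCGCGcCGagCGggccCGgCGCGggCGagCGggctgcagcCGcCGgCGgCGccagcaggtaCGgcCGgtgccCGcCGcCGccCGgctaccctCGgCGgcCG
The second pair is from the type II keratin cluster. The EZHIP-only window holds 9 CG in intergenic sequence, and the K27M window holds 32 CG in an island over an exon of Krt1, an epidermal keratin.
Keratin cluster EZHIP-only peak, chr15:101727309-101727608: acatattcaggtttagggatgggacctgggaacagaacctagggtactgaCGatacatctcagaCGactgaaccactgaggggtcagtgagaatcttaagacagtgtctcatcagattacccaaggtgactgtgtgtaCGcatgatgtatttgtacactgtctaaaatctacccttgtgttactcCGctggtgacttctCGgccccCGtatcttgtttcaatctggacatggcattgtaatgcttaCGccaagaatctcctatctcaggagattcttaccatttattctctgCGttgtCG
Keratin cluster K27M peak, chr15:101676370-101676669: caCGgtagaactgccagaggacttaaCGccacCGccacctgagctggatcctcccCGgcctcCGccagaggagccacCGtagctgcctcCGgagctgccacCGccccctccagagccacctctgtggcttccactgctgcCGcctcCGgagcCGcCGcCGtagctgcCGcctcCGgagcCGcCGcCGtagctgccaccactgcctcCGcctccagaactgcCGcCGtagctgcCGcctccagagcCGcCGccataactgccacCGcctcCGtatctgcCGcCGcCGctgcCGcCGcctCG
The third pair belongs to the EZHIP-only peak farthest from any K27M peak, inside Fstl4, a follistatin-like gene. The EZHIP-only window holds 6 CG and the K27M window holds 33 CG in an island.
Fstl4 EZHIP-only peak, chr11:52909470-52909769: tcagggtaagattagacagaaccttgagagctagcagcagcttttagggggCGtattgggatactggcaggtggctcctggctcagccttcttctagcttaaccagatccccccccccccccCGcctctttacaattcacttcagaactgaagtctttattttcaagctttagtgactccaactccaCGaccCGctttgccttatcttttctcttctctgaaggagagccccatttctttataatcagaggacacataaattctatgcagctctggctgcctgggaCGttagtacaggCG
Fstl4 K27M peak, chr11:52578412-52578711: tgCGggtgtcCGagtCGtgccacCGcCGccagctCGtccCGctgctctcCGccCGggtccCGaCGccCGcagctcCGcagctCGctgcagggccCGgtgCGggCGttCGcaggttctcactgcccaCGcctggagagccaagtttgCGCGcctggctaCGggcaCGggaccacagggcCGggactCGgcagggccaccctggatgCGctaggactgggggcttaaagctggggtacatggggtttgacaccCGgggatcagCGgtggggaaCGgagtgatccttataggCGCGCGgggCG
The last window is a CG-rich one from the Hoxd cluster, which encodes homeobox factors of the body axis and limb. The EZHIP-only window over a coding exon of Hoxd8 holds 49 CG and is shown alone, without comparison to a K27M window.
Hoxd cluster EZHIP-only peak, chr2:74543609-74543908: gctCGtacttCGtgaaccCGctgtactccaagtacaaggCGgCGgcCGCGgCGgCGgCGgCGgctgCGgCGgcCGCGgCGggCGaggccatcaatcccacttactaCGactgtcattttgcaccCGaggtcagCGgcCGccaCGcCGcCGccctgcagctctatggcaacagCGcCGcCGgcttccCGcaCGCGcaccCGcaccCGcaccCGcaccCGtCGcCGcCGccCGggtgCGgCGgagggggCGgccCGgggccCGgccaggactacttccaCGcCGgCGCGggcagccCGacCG

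CpG islands were rare in the EZHIP-only peaks. An island overlapped 52 of the 1046 peaks, which is 4.97% (3.73 to 6.47), against 37.3% of all 4890 autosomal EZHIP peaks. Among the 3133 EZHIP peaks shared with K27M the share was 52.5% (50.7 to 54.2), 47.5 percentage points higher than in the members (45.2 to 49.6, Newcombe interval). Among the 703 EZHIP-only peaks of K27R regions without any K27M peak it was 18.3% (15.6 to 21.4), 13.4 points higher (10.3 to 16.6). Both of these groups of EZHIP peaks therefore held islands more often than the members, beyond counting error. These intervals take peaks as independent and cover counting error only, and since 1 library stands behind each list no p-value is given. Sequence was not used to choose the peaks, but the rule bars overlap with K27M peaks, of which 58.1% on the autosomes held an island. The contrast with shared peaks, which overlap K27M peaks by definition, is therefore not independent of the rule. EZHIP-only peaks of regions without K27M overlap no K27M peak either, but their regions hold no K27M peak that could take up islands. In hosts, 885 of 1525 islands (58.0%) overlapped a K27M peak and so lay mostly out of the members' reach. The contrast with EZHIP-only peaks of regions without K27M is therefore not independent of the rule either. Of 640 host islands outside K27M peaks, 53 (8.28%) lay in an EZHIP-only peak, and these peaks covered 4.20% of the host length outside K27M peaks.

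Start sites of protein-coding genes were likewise rare. A start site lay in 55 of the 1046 peaks, 5.26% (3.99 to 6.79), against 31.6% of all autosomal EZHIP peaks. The share was 43.3% in shared peaks and 18.3% in EZHIP-only peaks of regions without K27M. Here too the contrast with shared peaks is not independent of the rule, since 49.3% of autosomal K27M peaks held a start site. Nor is the contrast with EZHIP-only peaks of regions without K27M, since 595 of 1334 host start sites lay in K27M peaks. Of the 1046 peaks, 25 held both an island and a start site, and 964 (92.2%, 90.4 to 93.7) held neither. The median distance from an EZHIP-only peak of a K27M-kept region to the nearest start site was 19.6 kb (17.9 to 22.1), compared with 1.77 kb for shared peaks and 8.54 kb for EZHIP-only peaks of regions without K27M.

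Width entered this comparison, because narrow peaks cover fewer islands and also overlap another list less easily. The EZHIP-only peaks of K27M-kept regions had a median width of 2.6 kb (2.4 to 2.8), with quartiles of 1.6 and 4.4 kb and a range of 1.2 to 23.6 kb. Shared EZHIP peaks had a median of 6.2 kb, and EZHIP-only peaks of regions without K27M had a median of 2.8 kb, close to that of the members. Within peaks of 1.6 to 3 kb, an island overlapped 13 of 440 members, 2.95% (1.58 to 5.00), and 25.7% of shared peaks and 16.4% of EZHIP-only peaks of regions without K27M. Above 6 kb the members reached 13.2% (7.56 to 20.8), whereas shared peaks reached 67.2% (64.8 to 69.5). In that widest class the members' interval overlapped that of EZHIP-only peaks of regions without K27M, which was 27.5% (19.1 to 37.2).

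**Figure D1:**
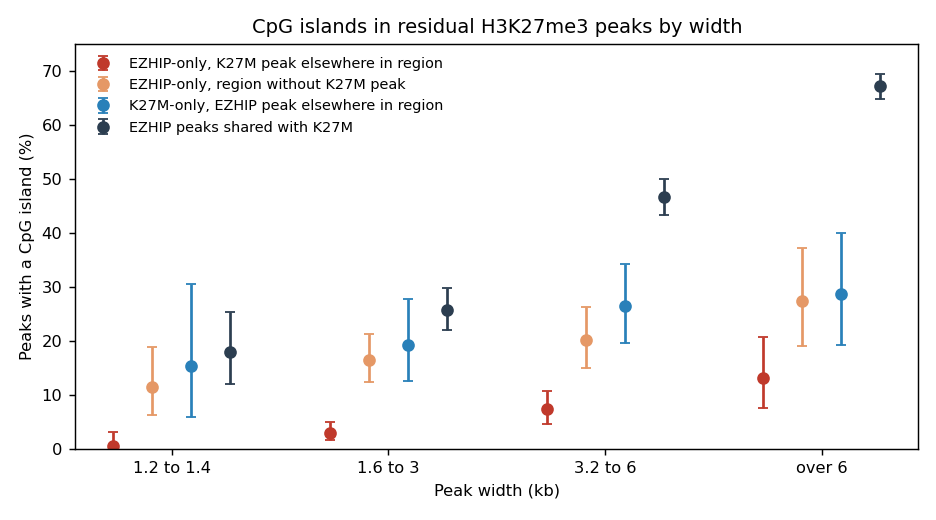
Percentage of peaks with a CpG island (y axis) in 4 classes of peak width in kb (x axis), for EZHIP-only peaks of K27M-kept regions, EZHIP-only peaks of regions without a K27M peak, K27M-only peaks of regions with an EZHIP peak, and EZHIP peaks shared with K27M. Points are shares and bars are exact 95% intervals, and the EZHIP-only peaks of K27M-kept regions run from 0.565% in the narrowest class to 13.2% in the widest, below shared peaks in each class.

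The opposite choice gave a less sharp picture. On the autosomes, 384 K27M peaks overlapped no EZHIP peak although their K27R region held an EZHIP peak, and 23.7% of them (19.5 to 28.3) overlapped an island. That is higher than the 4.97% of the EZHIP-only peaks, yet lower than the 58.1% of all autosomal K27M peaks. A start site lay in 14.3% of these K27M-only peaks, and their median width was 3.6 kb.

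CG density was then compared without calling islands. EZHIP-only peaks of K27M-kept regions held a median of 1.09 CG per 100 bp (1.05 to 1.13), and shared EZHIP peaks held 1.65. EZHIP-only peaks of regions without K27M held 1.05, so that by the density of the whole peak they lay close to the members. The densest 200 bp bin of a peak held a median of 5 CG in the members, 6 in EZHIP-only peaks of regions without K27M and 15 in shared peaks. Around the peak centres, the mean density of the members was 1.26 CG per 100 bp within 500 bp and 1.10 beyond 4 kb, a small central rise. EZHIP-only peaks of regions without K27M rose more at the centre, to 1.67 from 1.06. The corresponding values were 2.68 and 1.31 for shared peaks and 2.22 and 1.28 for the 651 K27M peaks that were nearest to a member.

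**Figure D2:**
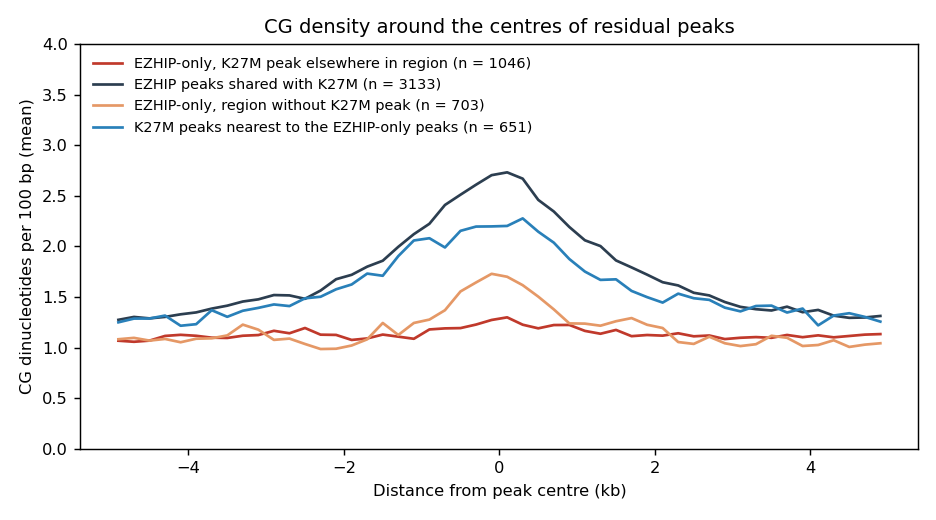
Mean number of CG dinucleotides per 100 bp (y axis) against the distance from the peak centre in kb (x axis), in 200 bp bins, for 1046 EZHIP-only peaks of K27M-kept regions, 3133 shared EZHIP peaks, 703 EZHIP-only peaks of regions without a K27M peak and the 651 K27M peaks nearest to the members. The line of the EZHIP-only peaks of K27M-kept regions stays between 1.06 and 1.30, while that of shared peaks reaches 2.73 at the centre.

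Each EZHIP-only peak was then paired with the nearest K27M peak of its own host, so that both came from the same K27R region. The gap within a pair reached 338 kb. CG density was lower in the EZHIP-only peak in 744 of 1046 pairs, 71.1% (68.3 to 73.9), with medians of 1.09 and 1.45 CG per 100 bp. The share was 70.3% in the 1005 pairs with the nearest shared EZHIP peak of the host. Contrasts with K27M peaks and with shared peaks, by pair or by host, are not independent of the rule. It bars the members from K27M peaks, which overlapped 58.0% of the host islands. Against the rest of the host, that is the host's sequence outside EZHIP and K27M peaks, the EZHIP-only peak was lower in 546 of 1046 pairs, 52.2% (49.1 to 55.3), and both medians were 1.09 CG per 100 bp. The interval of that share includes an even split. Many pairs share a host or a K27M peak, so the count was repeated over hosts: the mean density of a host's EZHIP-only peaks was below that of its K27M peaks in 382 of 489 hosts, 78.1% (74.2 to 81.7), and below that of the rest of the host in 236, 48.3% (43.8 to 52.8).

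**Figure D3:**
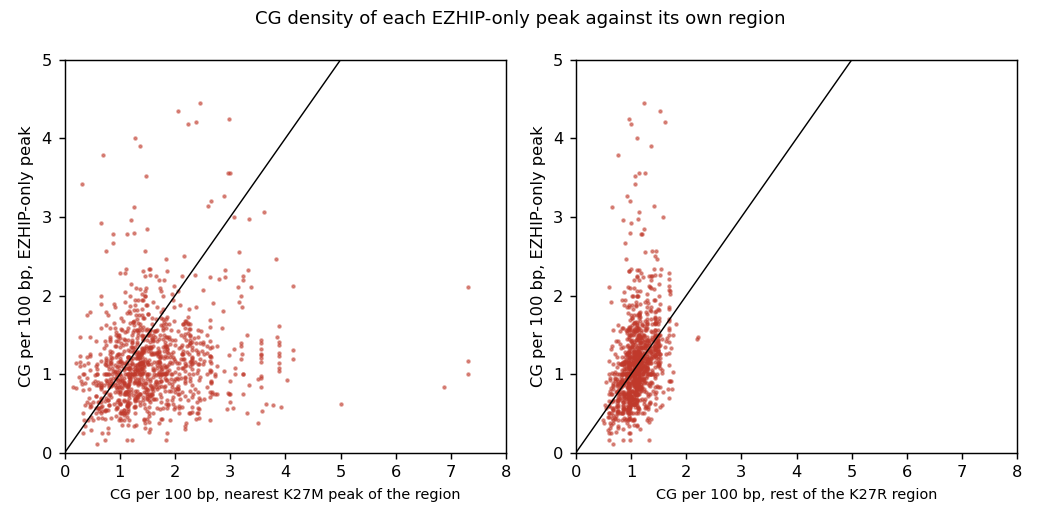
CG dinucleotides per 100 bp in each of the 1046 EZHIP-only peaks (y axis) against the nearest K27M peak of the same region (left, x axis) and against the rest of the K27R region (right, x axis). Each point is 1 peak and the line marks equal values. On the left 744 points lie below the line, and on the right 546 do.

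The median G+C content was 46.6% in the EZHIP-only peaks of K27M-kept regions and 49.0% in shared peaks. It was lower in the EZHIP-only peak than in the nearest K27M peak in 61.8% of pairs (58.7 to 64.7). Against the rest of the host, whose median was 46.3%, it was lower in 45.5% of pairs (42.5 to 48.6) and higher in the others. Many pairs share a host and this count was not repeated over hosts, so no direction is drawn from it. Simple repeats were counted on both strands without overlaps. The repeat GAGAGAGA occurred 4.92 times per 10 kb in the members, 4.85 times in the rest of the hosts and 5.49 times in shared peaks. CACACACA occurred 9.94, 10.6 and 9.97 times per 10 kb. GAGAGAGA was found in 47.9% of the members and in 44.1% of the EZHIP-only peaks of regions without K27M, which were of like width. A match describes the letters and no bound factor.

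The hosts were the wide ones among regions that K27M also kept. The 1046 peaks lay in 489 of 2053 autosomal K27R regions with a K27M peak, which is 23.8% (22.0 to 25.7). Hosts had a median width of 181.2 kb (169.8 to 195.8), against 54.8 kb (51.8 to 57.8) for the 1564 such regions without an EZHIP-only peak. The share of these regions with an EZHIP-only peak was 1.34% up to 25 kb, 15.8% from 50 to 100 kb, 36.5% from 100 to 200 kb and 72.9% above 400 kb. A wider region has more room for a peak of either kind, and how far this alone sets the shares was not tested.

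Most hosts held few such peaks. A single EZHIP-only peak was found in 270 hosts and 2 in 103 hosts, whereas 45 hosts held 5 or more and together 331 of the 1046 peaks. In the median host, K27M peaks covered 10.9% of the length, all EZHIP peaks 14.6% and EZHIP-only peaks 2.70%. Over all hosts together, 102.9 Mb of K27R region held 17.1 Mb of K27M peaks and 18.2 Mb of EZHIP peaks, of which 3.60 Mb were the EZHIP-only peaks. Their summed length was 9.98% of that of all autosomal EZHIP peaks.

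Most hosts also held an EZHIP peak that K27M cells had as well. A shared EZHIP peak was present in 465 of 489 hosts, 95.1% (92.8 to 96.8), and in 74.3% (72.1 to 76.4) of K27M-kept regions without an EZHIP-only peak. Between 100 and 200 kb of width the shares were 97.0% (93.2 to 99.0) and 85.7% (81.2 to 89.5), between 200 and 400 kb they were 94.7% and 93.3%, and above 400 kb they were 95.3% and 100% (of 16 regions). The difference was thus not seen in the widest regions. The remaining 24 hosts held 41 EZHIP-only peaks and 28 K27M peaks with no overlap between the lists. No overlap did not always mean space between them: the EZHIP-only peak at chr12:30742801-30744600 was among the 41 and abutted a K27M peak.

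The gaps between EZHIP-only peaks and K27M peaks ranged widely. Their median gap to the nearest K27M peak was 18.1 kb (16.4 to 21.0), with quartiles of 7.0 and 44.95 kb and a maximum of 324 kb. After merging of EZHIP peaks up to 10 kb apart the median was 33.4 kb. This nearest K27M peak lay in the host for 1029 peaks (98.4%). A gap of up to 10 kb was found for 347 peaks (33.2%), above 50 kb for 241 (23.0%) and above 100 kb for 89 (8.51%). No expected gap was computed for comparison. The nearest shared EZHIP peak was at a median of 19.6 kb (17 to 22), about as far as the nearest K27M peak. The nearest other EZHIP peak of any kind, other EZHIP-only peaks included, was at a median of 8.0 kb. Of the 1046 peaks, 396 (37.9%) had K27M peaks of the host on both sides, and the others lay outside the outermost K27M peak.

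**Figure D4:**
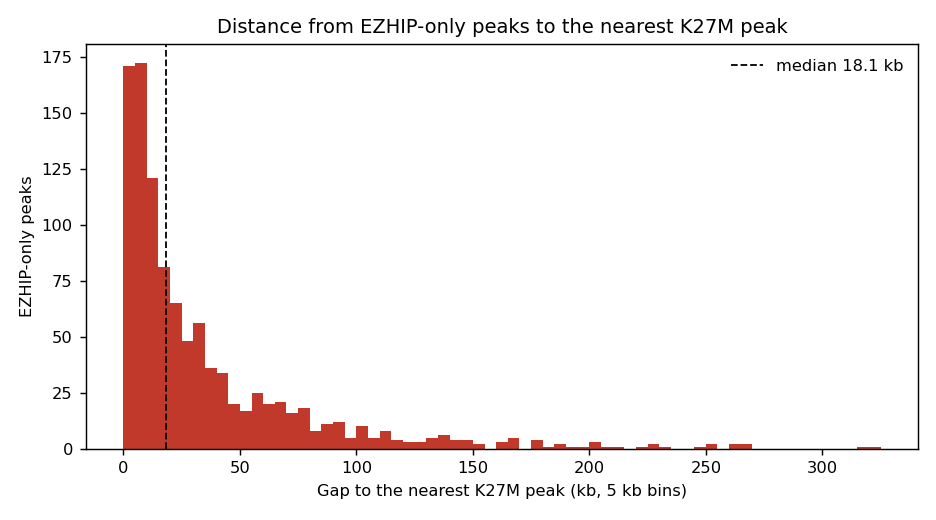
Number of EZHIP-only peaks of K27M-kept regions (y axis) by gap to the nearest K27M peak in kb, in bins of 5 kb (x axis), with the median of 18.1 kb as a dashed line. The counts are highest in the bins nearest to 0 and tail out to 324 kb, and 241 peaks lie beyond 50 kb.

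The share with an island showed no order by gap. An island overlapped 3.93% of the 178 peaks with a gap of up to 5 kb, 7.10% (3.72 to 12.1) of those between 5 and 10 kb, 4.91% between 10 and 25 kb, 3.63% (1.47 to 7.33) between 25 and 50 kb and 5.39% beyond 50 kb. The intervals of these shares overlap, and the median width was between 2.4 and 2.8 kb in all 5 classes of gap. The lists themselves differed in spacing. The shortest gap between neighbouring autosomal peaks was 5.2 kb in the K27M list and 1.2 kb in the EZHIP list, and 178 EZHIP-only peaks lay nearer to a K27M peak than the former. Merging EZHIP peaks up to 10 kb apart left 543 EZHIP-only peaks. That distance is also the gap below which the calling methods join neighbouring regions, although both lists hold shorter gaps. Counting a K27M peak within 5 kb as overlap left 875.

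Values just inside and outside the rule were as follows. The nearest peaks inside abutted a K27M peak with a gap of 0, at chr12:30742801-30744600 (1.8 kb), chr10:77314001-77315200 (1.2 kb) and chr17:34521601-34522800 (1.2 kb). The nearest outside overlapped one by a single 200 bp bin, at chr15:89361201-89371600 (10.4 kb), chr1:134563401-134568000 (4.6 kb) and chr1:94520001-94523200 (3.2 kb). Up to 400 bp of overlap was found for 26 EZHIP peaks, and 8 members had a gap of at most 400 bp.

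Seen from the features of the hosts, most islands and start sites were either in K27M peaks or in no peak of either inhibitor. The hosts contained 1525 CpG islands, of which 885 (58.0%) overlapped a K27M peak, 813 (53.3%) a shared EZHIP peak and 54 (3.54%) an EZHIP-only peak. Among the 640 islands outside K27M peaks, 53 were in an EZHIP-only peak, 8.28% (6.26 to 10.7), and 570 of the 1525 were in no K27M or EZHIP peak. EZHIP-only peaks covered 4.20% of the 85.7 Mb of host length outside K27M peaks. Of 1334 protein-coding start sites in the hosts, 595 (44.6%) lay in a K27M peak, 564 (42.3%) in a shared EZHIP peak and 57 (4.27%) in an EZHIP-only peak.

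Gene families differed in how many start sites lay in K27M peaks. In 12 families of genes that PRC2 commonly marks, 148 start sites lay in hosts, of which 118 were in a K27M peak, 112 in a shared EZHIP peak and 4 (2.70%) in an EZHIP-only peak. Over all genes 44.6% of start sites in hosts were in K27M peaks and 4.27% in EZHIP-only peaks. Since an EZHIP-only peak overlaps no K27M peak, the start sites outside K27M peaks are the ones it could hold: 4 of 30 in these families and 57 of 739 over all genes lay in one. For the homeobox factors, which set cell identity along the body axis and in organs, 42 of 49 start sites in hosts were in K27M peaks, 40 in shared EZHIP peaks and 2 in an EZHIP-only peak (Hoxd3 and Hoxd8). The forkhead, Sox and combined T-box, Gata, Zic, Tfap2 and Sall factors had 6, 3 and 7 start sites in hosts, and these were in K27M and in shared EZHIP peaks without exception. Basic helix-loop-helix factors had 8 of 9 in K27M peaks and 0 in EZHIP-only peaks. Wnt pathway genes had 5 of 7 in K27M peaks, and TGF-beta ligands and antagonists 2 of 5, with 0 in EZHIP-only peaks in both families. Ion channels and neurotransmitter receptors had 38 of 47 start sites in K27M peaks, 34 in shared EZHIP peaks and 2 in EZHIP-only peaks. Cell adhesion and axon guidance genes had 5 of 7, nuclear receptors 1 of 2 and collagens and extracellular matrix proteases 1 of 6 in K27M peaks, with 0 in EZHIP-only peaks. Fgf and hedgehog genes had 0 start sites in hosts. With so few start sites per family, the zeros are near what the share over all genes gives.

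The 57 genes with a start site in an EZHIP-only peak came from many functions. With an island in the peak were Acvrl1, a TGF-beta family receptor of blood vessels (5.8 kb), Slc6a11, a GABA transporter (4.0 kb), Kank1, an adaptor of cell adhesion sites (8.0 kb, 229.8 kb from the nearest K27M peak), and Pnpla3, a lipase-like protein of lipid droplets (18.4 kb). Without an island were Mobp, a myelin protein (14.8 kb, 145.2 kb from the nearest K27M peak), Grb7, a signalling adaptor (10.6 kb), the serotonin receptor gene Htr5a (1.6 kb) and the keratin genes Krt76 (10.8 kb), Krt78 (6.6 kb) and Krt84 (5.4 kb). The voltage-gated sodium channel gene Scn8a has 2 gene records in the annotation used, and the start of one lay in a 1.8 kb EZHIP-only peak and that of the other in a K27M peak.

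A smaller share of EZHIP-only peaks than of shared peaks lay in gene bodies. The midpoint of 429 of the 1046 was inside a protein-coding gene, 41.0% (38.0 to 44.1), against 46.4% of all autosomal EZHIP peaks, 49.7% of shared peaks and 39.7% of EZHIP-only peaks of regions without K27M. Shared peaks were higher by 8.68 points (5.20 to 12.1), and the interval of the difference from the latter group, -1.33 points (-5.98 to 3.37), includes 0. By midpoint, 387 peaks (37.0%) were intronic, 42 (4.02%) exonic and 617 (59.0%) outside protein-coding genes. Introns held 36.9% of all autosomal EZHIP peaks and 37.4% of shared peaks, like the members, whereas exons held 9.49% and 12.3%. Among peaks of 1.6 to 3 kb the share in genes was 38.2% (33.6 to 42.9) in members and 42.0% (37.7 to 46.5) in shared peaks. In the narrowest class it was 42.9% and 41.0%. Over 3 and up to 6 kb it was 41.9% (36.4 to 47.6) and 49.7% (46.4 to 53.0). Above 6 kb it was 46.5% (37.1 to 56.1) and 52.9% (50.4 to 55.3). The intervals overlapped in each class of width.

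The start sites of genes with an EZHIP-only peak in the body were then placed. Of the 429 peaks in genes, 224 (52.2%, 47.4 to 57.0) were in a gene whose start site lay in a K27M peak, 135 (31.5%) in a gene whose start lay in a K27R region but in neither a K27M peak nor an EZHIP-only peak, 48 (11.2%) in a gene with its start in an EZHIP-only peak and 22 (5.13%) in a gene starting outside K27R regions. With each peak assigned to the longest gene over its midpoint, the peaks fell on 292 genes, and 134 of these (45.9%) had the start site in a K27M peak, near the 44.6% of all start sites in hosts. Of the genes, 77 had 2 or more EZHIP-only peaks and 32 had 3 or more.

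Ikzf1 (ENSMUSG00000018654.10, chr11:11585006-11672929, plus strand) shows the arrangement in a locus displayed for H3K27me3 by the study. Its K27R region of 181.2 kb held a K27M peak of 18.8 kb at chr11:11577401-11596200, over the start site. The EZHIP-only peak was at chr11:11647001-11650200, 3.2 kb wide and 63.6 kb from the start. It lay 50.8 kb from the K27M peak and had 1.09 CG per 100 bp against 1.83 in that peak. A shared EZHIP peak was also present at the start.

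Rbfox3, which encodes the neuronal RNA-binding protein NeuN, carried the most EZHIP-only peaks of any gene. The gene (ENSMUSG00000025576.10, minus strand) spans 421.8 kb at chr11:118351074-118772911 and held 15 of them, which together covered 100.4 kb. They were 2.0 to 23.6 kb wide with a median of 4.8 kb, lay 28.2 to 366.6 kb from the start site, and none contained an island. Their midpoints were in introns without exception, and their CG density ran from 1.15 to 1.82 per 100 bp. K27M cells had 6 peaks of 64.7 kb in the same gene, and 5 shared EZHIP peaks covered 75.7 kb. The gene's start site lay in a K27M peak. The widest of the 1046 peaks was among the 15, at chr11:118697601-118721200, and here the nearest K27M peak had the lower density, 1.07 against 1.30 CG per 100 bp.

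Other genes with at least 5 such peaks, named for that number, were shorter than Rbfox3. Acoxl, Zdhhc14, Nfasc, Dlgap4 and Ak8 each held 5 EZHIP-only peaks, which covered 13.2, 19.4, 16.0, 10.4 and 24.4 kb, and none of these peaks contained an island. The start site lay in a K27M peak for 4 of these genes, and that of Ak8 lay in a K27R region outside K27M peaks. Nfasc encodes the axonal adhesion protein neurofascin, Dlgap4 a postsynaptic scaffold protein and Zdhhc14 a palmitoyltransferase. In Nfasc, 4 K27M peaks covered 33.6 kb and the EZHIP-only peaks lay 3.4 to 26.6 kb from a K27M peak, whereas in Zdhhc14 the gaps were 88 to 231.2 kb.

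The host with the most EZHIP-only peaks was the type II keratin cluster, a row of genes for epithelial and hair keratins. This K27R region of 512.2 kb at chr15:101290401-101802600 held 19 EZHIP-only peaks of 1.2 to 10.8 kb, together 87.2 kb, besides 8 shared EZHIP peaks and 8 K27M peaks of 95.0 kb. None of the 19 contained an island. Of the region's 5 islands, 3 were in K27M peaks, which EZHIP-only peaks do not overlap by the rule. Of 22 start sites, 5 lay in K27M peaks (Krt82, Krt72-ps, Krt73, Krt1 and Krt77), 8 in shared EZHIP peaks and 3 in EZHIP-only peaks (Krt84, Krt76 and Krt78). The median density of the EZHIP-only peaks was 0.857 CG per 100 bp, below the 0.967 of the rest of the region and the 1.23 of its K27M peaks.

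The next host, of 685.6 kb at chr11:118316201-119001800, contained Rbfox3 and the Polycomb genes Cbx2 and Cbx8, which encode chromodomain subunits of PRC1 that bind H3K27me3. It held 17 EZHIP-only peaks of 104.2 kb with 0 islands and 0 start sites, and 9 K27M peaks of 167.2 kb. Of its 18 islands, 10 were in K27M peaks, and the start sites of Rbfox3 and Cbx8 lay in K27M peaks. The EZHIP-only peaks again had the lowest density, 1.39 CG per 100 bp against 1.48 in the rest and 1.6 in K27M peaks.

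The host of rank 3 differed. It covered 623.4 kb at chr15:100396401-101019800, from Pou6f1 to Acvr1b, and held 12 EZHIP-only peaks of 40.4 kb, 11 shared peaks and 10 K27M peaks of 137.8 kb. Here 3 EZHIP-only peaks contained an island and 3 a start site, those of Slc4a8, Scn8a and Acvrl1. Densities were 1.76 CG per 100 bp in EZHIP-only peaks, 1.68 in the rest and 1.79 in K27M peaks, a narrow spread.

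**Figure D5:**
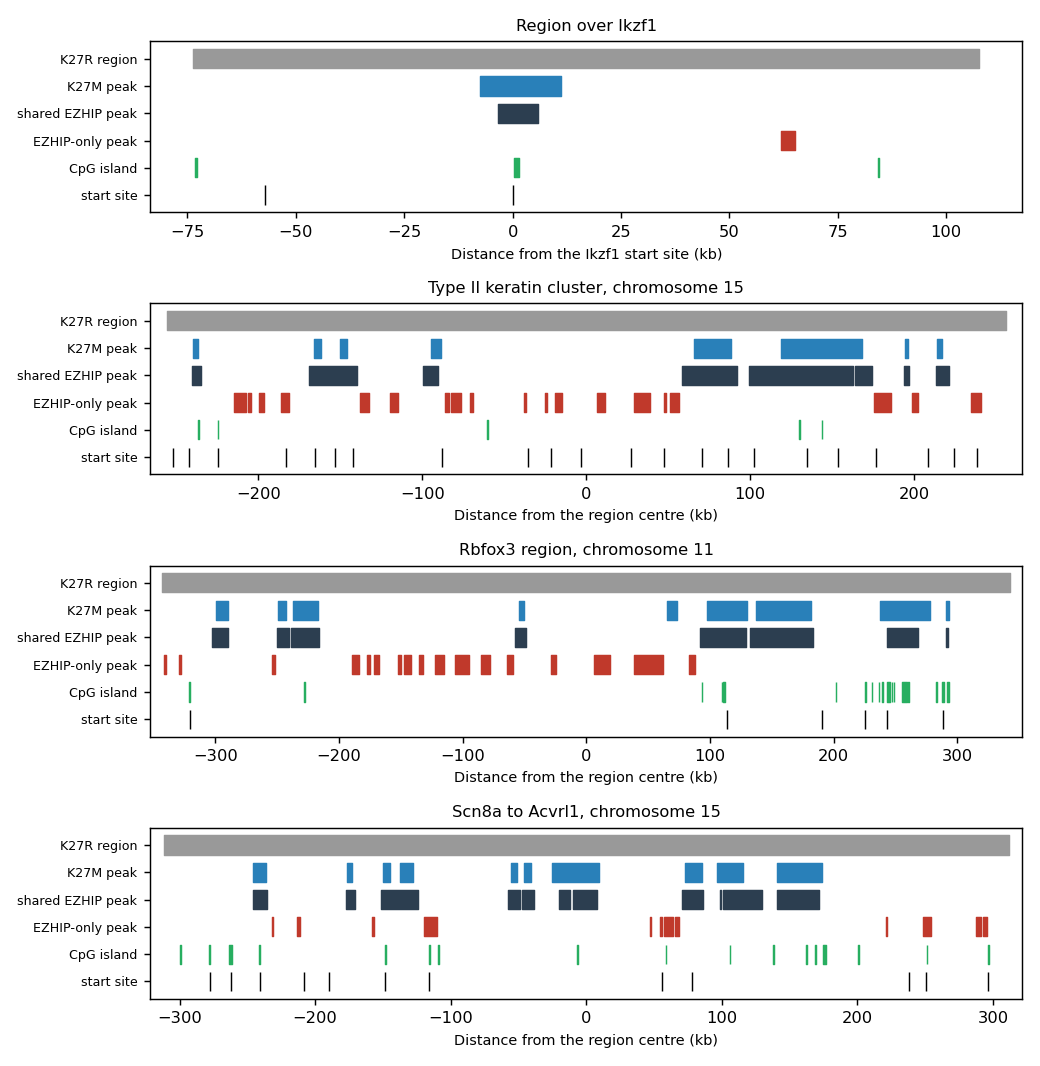
Maps of the region over Ikzf1 and of the 3 hosts with the most EZHIP-only peaks, with rows for the K27R region, K27M peaks, shared EZHIP peaks, EZHIP-only peaks, CpG islands and protein-coding start sites. The x axis is the distance in kb from the Ikzf1 start site or from the centre of the region, to scale. The 19, 17 and 12 EZHIP-only peaks of the 3 hosts are spread over the regions, and those of the keratin and Rbfox3 regions overlap no island.

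The Hox clusters held a few EZHIP-only peaks, each within several kb of a K27M peak. In the Hoxd cluster a peak of 12.4 kb at chr2:74541001-74553400 with 2 islands covered the start sites of Hoxd8 and Hoxd3, and was 1.2 kb from a K27M peak of 61.8 kb. Its density was 3.56 CG per 100 bp, above the 2.96 of the K27M peak. A peak of 6.0 kb at chr6:52164401-52170400 over Hoxa7, with 2 islands, was 2.2 kb from a K27M peak of 54.2 kb and likewise denser, 3.27 against 2.89. The remaining ones were poor in CG: chr15:102707001-102708600 near Hoxc had 0.625 CG per 100 bp and chr2:74606401-74607600 near Hoxd1 had 0.750. The Hoxb cluster held none. The other peak with 2 islands was in Atp2b2, a plasma membrane calcium pump gene, at chr6:113693801-113705200 (11.4 kb), and was 134.4 kb from the nearest K27M peak.

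The other wide and remote peaks were as follows. After the Rbfox3 peak, the widest were chr4:33265001-33288000 (23.0 kb, with 1 island and the start site of Pm20d2), chr15:83998201-84016600 (18.4 kb, Pnpla3, 1 island), chr15:83477001-83493600 (16.6 kb, in Scube1, no island) and chr15:75510001-75525200 (15.2 kb, 0.770 kb from the start of Top1mt, no island). The farthest from any K27M peak were chr11:52908401-52910200 in Fstl4 (1.8 kb wide, 324 kb away), chr17:67725001-67726200 (1.2 kb wide, 318.2 kb) and chr6:50049801-50051800 (2.0 kb wide, 267.2 kb). These 3 were narrow, contained no island and had 0.778, 0.667 and 0.60 CG per 100 bp.

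Chromosome 15 had the highest share. EZHIP-only peaks of K27M-kept regions were 120 of its 338 EZHIP peaks, 35.5% (30.4 to 40.9), compared with 13.2 to 27.2% on the other autosomes. By number it was level with chromosome 2, which held 119. Of its 82 K27M-kept regions, 36 (43.9%) were hosts, within the 14.5 to 45.2% of the other autosomes, where chromosome 19 was highest. Without chromosome 15 the share of members with an island was 4.54% and that with a lower CG density than the nearest K27M peak was 70.2%.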

How the data were processed

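H3K27me3 ChIP-Seq peak lists of 3 of the 5 MEF libraries (EZHIP, K27M and K27R, 1 library per group, grouped by sample title) were used. Per the labels and methods, crosslinked chromatin was digested with MNase and immunoprecipitated, reads were aligned with Bowtie 1.0.0 (version from the submitters' processing notes) to mm9 and a spike-in genome, and broad peaks were called by the authors with MOSAiCS-HMM, for which the methods state a maximum gap of 10000 bp. Whether the spike-in scaling entered the calls is not given in the sources used here. The deposited lists hold positions and no counts or scores, so depth is unknown. Lists differed in their shortest gap, and a wide peak overlaps more easily, which bears on every count of EZHIP-only peaks.

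Peaks lay on a 200 bp grid and overlapped when sharing at least 1 bp. Positions are 1-based. CpG islands were found in the NCBIM37 (mm9) sequence (17 per CG, -1 per other base, over 200 bp, at least 50% G+C, observed to expected ratio above 0.6), which gave 27115 islands, repeats not masked. Start sites are the 5′ ends of 22350 protein-coding genes in the GENCODE annotation of that build. Shares have exact Clopper-Pearson 95% intervals, differences Newcombe intervals, and medians order-statistic intervals. These cover counting error only. No p-value was computed, because peaks of 1 library are not replicates.

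The members, gene families and naming rule were chosen with earlier results of these data known. Named were the 5 widest peaks, the 3 with most islands, the 3 farthest from and nearest to K27M, the 3 EZHIP peaks with the smallest overlap, the 3 hosts with most members, peaks at Ikzf1 and the Hox clusters, and, per family, genes with a start site or body under a member. Rbfox3 and the other genes with at least 5 members were named after their values were seen, as were the examples among the 57 genes and the keratin pair of sequences. Some named genes and 1 sequence are not reported here. Alternatives were a minimum width of 2000 bp, merging of EZHIP peaks or of K27R regions up to 10000 bp apart, a K27M peak within 5000 bp counted as overlap, members wholly inside the K27R region, islands of at least 500 bp, start sites within 5000 bp, means for medians, and chromosome 15 left out. The classification was tested on simulated data, with 0 disagreements over 502 peaks in 50 lists, and 200 of 200 planted islands were recovered with 0 elsewhere. Tools were Python 3.11.15, numpy 2.4.6, pandas 2.3.3, scipy 1.17.1 and matplotlib 3.10.9.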

Additional observations from a re-analysis of the deposited data

How the results depend on the processing

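Of 45 alternative values, 36 stayed near the reported value and 9 moved further. Near meant within the interval of the reported value. For the number of members it meant within a set ratio to the reported number, which the values from 708 to 1057 met. The results are counts, shares and medians, so a change of direction was not assessed. Merging EZHIP peaks up to 10000 bp apart left 543 EZHIP-only peaks of K27M-kept regions in place of 1046 and raised the median gap to K27M from 18.1 to 33.4 kb. Counting a K27M peak within 5000 bp as overlap raised that gap to 24.4 kb, and its mean was 36.0 kb. Keeping peaks of at least 2000 bp raised the median width from 2.6 to 3.6 kb and the share with a CpG island from 4.97% to 6.64%, and the mean width was 3.44 kb. With islands of at least 500 bp the share was 2.29%. With start sites within 5000 bp the share rose from 5.26% to 20.2%. Alternatives that remove narrow peaks or widen a distance move these values by construction. Of the numbers of members that met the set ratio, the lowest, 708, came from the minimum width. The 543 after merging lay below it and did not meet the ratio.

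Each group had 1 library, so leaving out a replicate could not be done, and the lists hold no scores for a stricter threshold. Libraries could not be paired because each group has 1 library. Pairing was done only within K27R regions, and no result comes from a test. Whether another line or another call of the same reads would give the same EZHIP-only peaks was not tested.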

Other observations

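By the same rule, the X chromosome would have given few further peaks. Its lists held 102 EZHIP peaks, 398 K27M peaks and 752 K27R regions, of which 64 overlapped a K27M peak. Of the 102 EZHIP peaks, 91 were shared with K27M, 8 would have met the rule and 3 lay in K27R regions without K27M.

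Starts of non-coding genes and pseudogenes lay in 20 of the 1046 autosomal EZHIP-only peaks (1.91%), in 10.6% of shared EZHIP peaks and in 2.99% of the EZHIP-only peaks of regions without K27M. The 57 protein-coding genes with a start site in an EZHIP-only peak also included Svs5, a seminal vesicle protein (1.4 kb wide, 66.6 kb from the nearest K27M peak), Cd300lf, a receptor of myeloid cells (5.0 kb, 18.2 kb), and H2-Eb1, a class II histocompatibility gene (5.4 kb, 8.2 kb). Among the 15 ion channel and receptor genes with an EZHIP-only peak over the body, 8 had their start site in a K27M peak, as did 45.9% of all 292 genes with such a peak.

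Members with an island were few but dense. The 52 such peaks had a median width of 4.6 kb (3.6 to 5.6) and a median of 2.27 CG per 100 bp (2.02 to 2.92), against 2.6 kb and 1.06 in the 994 without one. Shared EZHIP peaks without an island had 1.14 CG per 100 bp (1.12 to 1.17), a little higher than the members without one. EZHIP-only peaks of regions without K27M and without an island had 0.917 (0.868 to 0.952), lower than the members without one (1.02 to 1.10).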
